A study of Homo sapiens with 12 samples.

Results

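DNA replication genes were followed in WT MDA-MB-231 cells and in MDA-MB-231 cells lacking the core-regulatory element (CRE) of the ETS1 promoter (ΔCRE, labelled KO). The group held 39 named genes and was read from the gene column of the deposited expression table. All 39 were found among its 24331 features, each as the only gene of its feature, and all 39 passed the filter on low values that left 11256 features for testing. MDA-MB-231 is a human breast cancer cell line with mesenchymal features. Cells of both genotypes were left unstimulated (0 h) or stimulated with PMA, a phorbol ester that activates protein kinase C, together with Ionomycin, a calcium ionophore, for 6 h or 24 h, with 2 biological replicates in each of the 6 groups and 12 RNA-sequencing libraries in all. The ΔCRE cells were made with CRISPR/Cas9, and the number of clones behind their libraries is not given in the sources used here, so the deletion and a clone cannot be told apart. Expression was given as FPKM, read fragments scaled for transcript length and for the number of mapped fragments in the library.

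DNA replication starts when the origin recognition complex, CDC6 and CDT1 load the MCM2-7 helicase on chromatin in G1 phase. CDC45, the GINS complex and MCM10 then turn the helicase on in S phase, primase and polymerase alpha lay down primers, and polymerases delta and epsilon extend them on the PCNA clamp that replication factor C loads. Ribonucleotide reductase, thymidylate synthase and thymidine kinase supply the deoxynucleotides, and many of these genes are transcribed at the G1/S transition under E2F transcription factors, so their transcripts are used as a readout of how many cells cycle. In bulk RNA, fewer cells in S phase and less of a transcript per cell cannot be told apart.

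Promoter sequences were taken from RefSeq (GRCh38.p14) for 33 of the 39 genes, from 250 bases before to 50 bases after the annotated start. There was no entry for MCM4, MCM5, GINS4, POLD3, RPA2 and RPA3. The letters TTTCCCGC, TTTGGCGC, TTTCGCGC or TTTGCCGC, spellings of the E2F site, were found on either strand in 17 of the 33 promoters (51.5%), against 3.33% of all 27305 promoters and 5.61% of the 8169 promoters of tested features. CCAAT, the NF-Y motif, was found on either strand in 57.6% of the members' promoters, against 35.7% of all promoters and 37% of those of tested features. TTTGAA was in 3.03% (15.4% of all and 9.3% of tested promoters), and GGGCGG, the GC box, was in 66.7%, above the 44.6% of all promoters and below the 72.3% of tested ones. In WT cells, the change from 0 h to 24 h on the log2(FPKM + 1) scale had a median of −0.52 (−0.84 to 0.03) over the 17 genes with the E2F letters and of −0.33 (−1.06 to −0.10) over the 16 without them. These ranges overlapped, and both groups held genes with a large fall. A match of letters is a description of the sequence and does not show that a factor binds there.

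The 150 bases before the start are shown 5′ to 3′ for 6 of the 33 genes, the clamp PCNA, DNA ligase 1, thymidylate synthase, the catalytic subunit of polymerase epsilon, a helicase subunit and the small subunit of ribonucleotide reductase. The first 5 hold E2F letters, where 17 of the 33 promoters do, so the 6 shown do not stand for the others. Capitals mark the E2F letters on either strand in the first 5. In MCM6 the matches lie on both strands and overlap each other, and the first begins just before the printed window. In RRM2, which has no E2F letters in the whole window, capitals mark its 3 copies of CCAAT.
PCNA, chr20:5126623-5126772, minus strand: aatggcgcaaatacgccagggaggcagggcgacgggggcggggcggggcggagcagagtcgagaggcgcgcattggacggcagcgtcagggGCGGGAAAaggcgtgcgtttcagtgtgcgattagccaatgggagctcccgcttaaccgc
LIG1, chr19:48170345-48170494, minus strand: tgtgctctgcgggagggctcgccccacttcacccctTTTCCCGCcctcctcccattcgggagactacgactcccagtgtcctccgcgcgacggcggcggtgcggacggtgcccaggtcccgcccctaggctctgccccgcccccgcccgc
TYMS, chr18:657503-657652, plus strand: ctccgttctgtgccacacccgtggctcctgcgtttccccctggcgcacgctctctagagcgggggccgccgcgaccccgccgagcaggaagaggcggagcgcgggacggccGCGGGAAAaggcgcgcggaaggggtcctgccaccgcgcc
POLE, chr12:132687343-132687492, minus strand: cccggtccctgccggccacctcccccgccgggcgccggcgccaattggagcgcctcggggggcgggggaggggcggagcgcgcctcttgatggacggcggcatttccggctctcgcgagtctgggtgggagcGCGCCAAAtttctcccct
MCM6, chr2:135876444-135876593, minus strand: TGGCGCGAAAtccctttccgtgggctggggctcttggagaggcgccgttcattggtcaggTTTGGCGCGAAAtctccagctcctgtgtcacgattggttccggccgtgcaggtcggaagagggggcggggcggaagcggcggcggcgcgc
RRM2, chr2:10122589-10122738, plus strand: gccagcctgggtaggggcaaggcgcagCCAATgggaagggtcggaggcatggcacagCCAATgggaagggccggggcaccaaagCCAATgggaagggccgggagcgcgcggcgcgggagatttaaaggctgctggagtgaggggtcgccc

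The libraries were checked before the genes were compared. ETS1, whose element was deleted, had 24.0 and 23.7 FPKM in WT cells at 0 h, 139.2 and 145.2 FPKM at 6 h, and 36.2 and 39.7 FPKM at 24 h. In ΔCRE cells it had 5.08 and 16.5 FPKM at 0 h, 62.8 and 62.2 FPKM at 6 h, and 29.3 and 30.7 FPKM at 24 h, below WT in every library of the same time. The library labelled ΔCRE 0 h replicate 1 stood apart: all 10 of the epithelial and gut markers, CDH1, CDX2 and VIL1 among them, were at 1 FPKM or more in it and summed to 10208.5 FPKM, whereas in each of the other 11 libraries 1 of the 10 (EPCAM) reached 1 FPKM, the sum was 2.22 to 3.46 FPKM and between 5 and 9 were at 0. The 5 mesenchymal markers VIM, CD44, AXL, CAV1 and MSN were above 1 FPKM in all 12 libraries, with a sum of 1496.3 FPKM in this library and of 2148.6 to 3337.2 FPKM in the others. That library was left out of the tests and is described apart, so that ΔCRE cells at 0 h are represented by replicate 2 alone. Pearson's r of log2(FPKM + 1) across features between the replicates of a group was 0.978 to 0.984, and 0.867 for the 2 ΔCRE 0 h libraries. The total number of fragments per library is not known. The spacing of the lowest FPKM values put the relative depth at 0.73 to 1.19 of that of WT 0 h replicate 1, which holds only if each library was scaled by its own fragments.

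In unstimulated WT cells all members were expressed. Over the 11 libraries, mean FPKM ranged from 6.93 for GINS4 and 7.87 for POLA2 to 155.6 for FEN1 and 226.8 for MCM7. The members took 0.38% and 0.383% of the summed FPKM in the WT 0 h libraries, 0.33% and 0.333% at 6 h, and 0.276% and 0.28% at 24 h. In ΔCRE cells these shares were 0.405% at 0 h (replicate 2), 0.351% and 0.356% at 6 h, and 0.277% and 0.288% at 24 h. The share was thus lower at 24 h than at 6 h, and lower at 6 h than at 0 h, in these 11 libraries. In ΔCRE 0 h replicate 1 it was 0.154%, below all of them. The summed FPKM of that library was 1423335, against 566255 to 651080 in the others. Its share was thus taken of a far larger sum and cannot be set beside theirs as a level of the members.

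**Figure D1:**
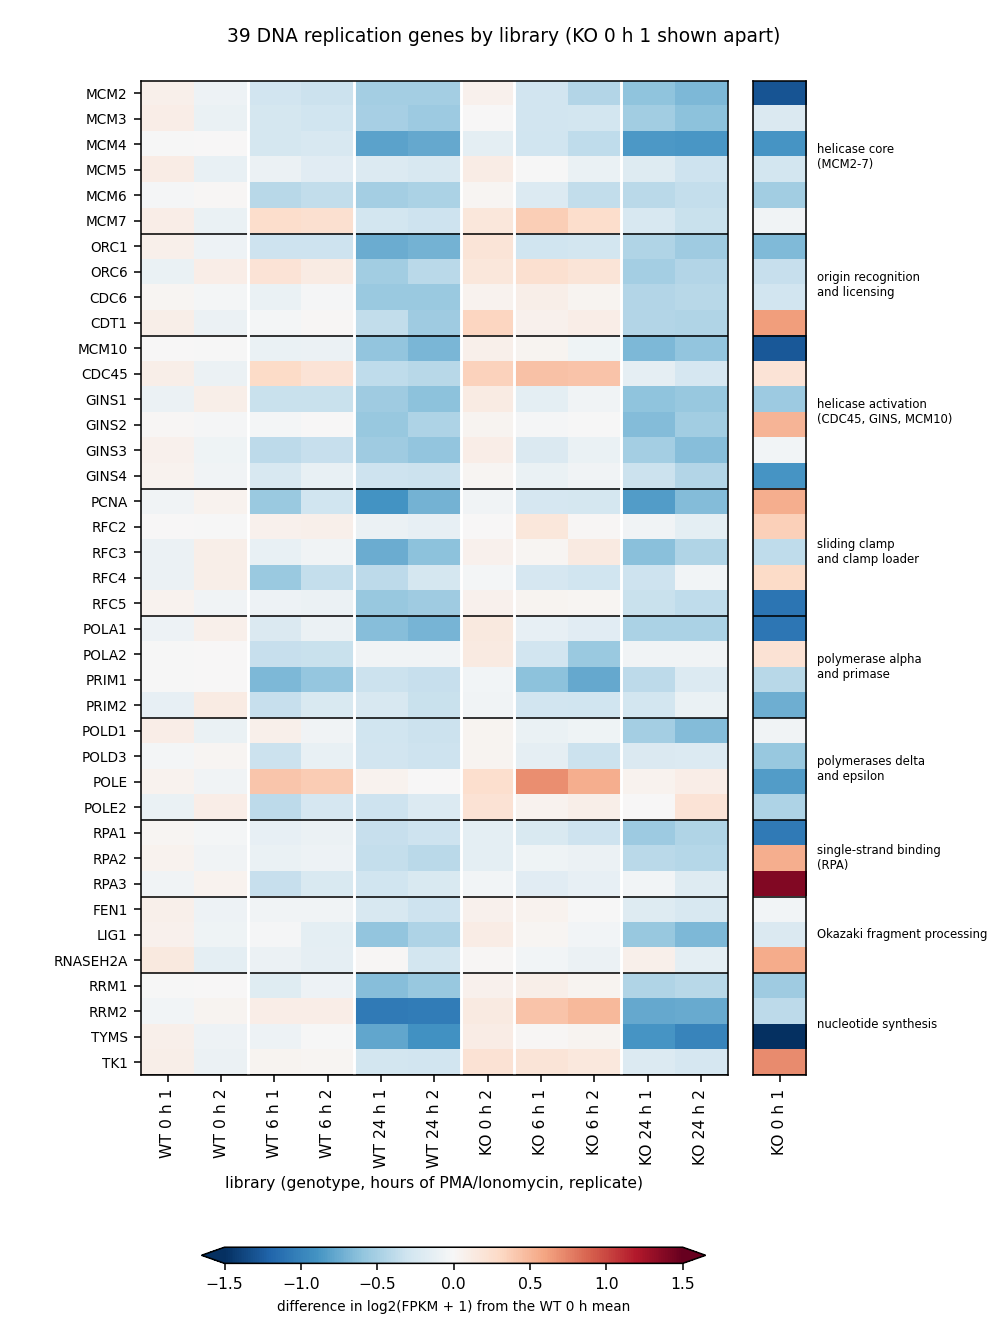
Each row is 1 of the 39 genes and each column 1 library; the colour gives the difference in log2(FPKM + 1) from the mean of the WT 0 h libraries, with the scale ending at −1.5 and 1.5, and the library KO 0 h 1 (ΔCRE 0 h replicate 1) stands apart at the right. Most rows turn blue at 24 h in WT and KO (ΔCRE) cells alike, whereas MCM7, CDC45 and POLE are red at 6 h.

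After 24 h of PMA/Ionomycin, WT cells had lower levels of most replication genes. Compared with 0 h, 35 of the 39 members fell, none rose and 4 did not pass the test (limma, adjusted p under 0.05 over 11256 features), whereas 28.2% of all tested features fell and 26.5% rose. The median log2 fold change was −0.45 over the members and −0.02 over all features, with standard errors of 0.049 to 0.12 per member. In 37 of the 39 members both 24 h libraries lay below both 0 h libraries, as in 40.2% of all features. All members of the MCM2-7 helicase (6 of 6), of origin recognition and licensing (4 of 4), of helicase activation (6 of 6), of RPA (3 of 3) and of nucleotide synthesis (4 of 4) fell, as did 4 of 5 genes of the clamp and its loader, 3 of 4 of polymerase alpha and primase, 3 of 4 of polymerases delta and epsilon, and 2 of 3 of Okazaki fragment processing. RFC2, POLA2, POLE and RNASEH2A were the 4 that did not pass. With each library rescaled to the same sum (TPM) 32 members fell, against 25.9% of all features, RFC4, PRIM2 and POLE2 no longer passing. After quantile normalization 34 fell, without MCM5, against 29.9% of all features. With the outlying ΔCRE 0 h library kept in the fit, which widens the spread shared by all groups, 9 of 39 fell against 4.15% of features.

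**Figure D2:**
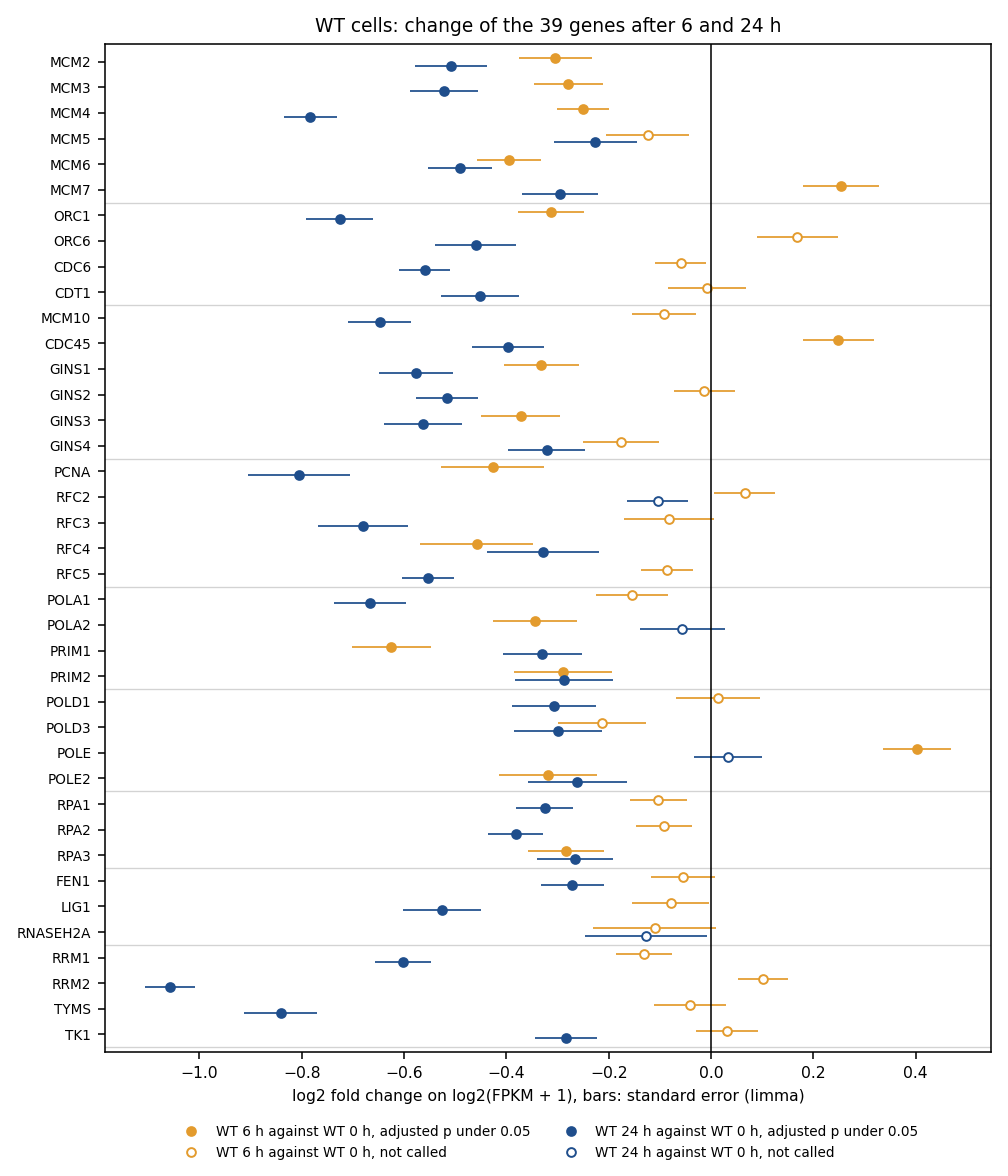
Points give the log2 fold change on log2(FPKM + 1) in WT cells at 6 h (orange) and 24 h (blue) against 0 h for the 39 genes grouped by role, bars give the standard error, and filled points passed an adjusted p of 0.05. At 24 h all points but POLE lie left of 0, while at 6 h the points spread from −0.63 for PRIM1 to 0.40 for POLE.

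The nucleotide synthesis genes held the largest fall. RRM2 (chr2:10262695-10271546, hg19), the small subunit of ribonucleotide reductase, had 108.5 and 114.2 FPKM in WT cells at 0 h, 119.2 and 119.8 FPKM at 6 h, and 52.9 and 53.1 FPKM at 24 h. Both 24 h libraries were far below the other 4 and lay close to each other. The level at 24 h was 47.6% of that at 0 h, with a log2 fold change of −1.06 ± 0.049 (SE, adjusted p = 1.12e-06). RRM1, the large subunit of the same enzyme, had 99.0 and 99.8 FPKM at 0 h, 87.4 and 94.0 FPKM at 6 h, and 63.6 and 66.7 FPKM at 24 h, and fell by 0.60 ± 0.054 (SE) on the log2 scale. The fall of the small subunit was the steeper, and neither gene overlapped between 0 h and 24 h. TYMS, thymidylate synthase, had 80.8 and 72.7 FPKM at 0 h, 72.7 and 76.3 FPKM at 6 h, and 44.2 and 40.5 FPKM at 24 h, with a log2 fold change of −0.84 ± 0.071 (SE) at 24 h. Its exons share 39.9% of their bases with ENOSF1 on the other strand, and whether the counting used the strand is not given in the sources used here. TK1, thymidine kinase, changed least of the 4, from 143.0 and 127.0 FPKM at 0 h and 138.4 and 137.1 FPKM at 6 h to 111.1 and 110.0 FPKM at 24 h (−0.28 ± 0.061, SE). None of the 4 passed the test at 6 h with FPKM as deposited, whereas RRM1 and TYMS were lower with TPM and RRM1 with quantile normalization.

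Among the helicase subunits, MCM4 fell most. MCM4 (chr8:48872763-48890719, hg19) had 42.6 and 42.9 FPKM at 0 h, 35.5 and 36.0 FPKM at 6 h, and 24.0 and 24.8 FPKM at 24 h, so that the 3 times did not overlap and each was below the one before. Its level at 24 h was 57.1% of that at 0 h, with a log2 fold change of −0.78 ± 0.051 (SE, adjusted p = 6.93e-06). MCM5 had the smallest change of the 6, from 99.2 and 84.7 FPKM at 0 h and 86.5 and 81.7 FPKM at 6 h to 79.2 and 77.2 FPKM at 24 h (−0.23 ± 0.081, SE, adjusted p = 0.042), and after quantile normalization it was −0.17 with an adjusted p of 0.062. The 0 h libraries of MCM5 differed from each other by more than its 6 h and 24 h libraries did.

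Of the genes that mark and license origins, ORC1, the largest subunit of the origin recognition complex, had 12.9 and 11.6 FPKM at 0 h, 9.65 and 9.64 FPKM at 6 h, and 6.91 and 7.08 FPKM at 24 h (−0.73 ± 0.065, SE, adjusted p = 4.19e-05). It declined at each step with no overlap. CDT1, the loading factor that geminin inhibits, had 21.9 and 19.4 FPKM at 0 h, 20.1 and 20.9 FPKM at 6 h, and 15.8 and 13.9 FPKM at 24 h (−0.45 ± 0.076, SE), with 6 h libraries inside the range of the 0 h libraries. Among the genes of helicase activation, MCM10 had 23.2 and 22.9 FPKM at 0 h, 21.5 and 21.6 FPKM at 6 h, and 14.9 and 13.9 FPKM at 24 h (−0.65 ± 0.062, SE). GINS4, a subunit of the GINS complex, fell least of these, from 8.22 and 7.52 FPKM at 0 h and 6.51 and 7.19 FPKM at 6 h to 6.12 and 6.07 FPKM at 24 h (−0.32 ± 0.075, SE). Both of its 24 h libraries were below the lowest 0 h library, and at these low levels the log2(FPKM + 1) scale understates the change.

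PCNA (chr20:5095599-5107268, hg19), the clamp that holds polymerases on DNA, had 164.1 and 175.6 FPKM at 0 h, 114.8 and 138.3 FPKM at 6 h, and 90.7 and 103.2 FPKM at 24 h. The 3 times did not overlap, although the 6 h replicates lay well apart. Its level at 24 h was 57.1% of that at 0 h (log2 fold change −0.81 ± 0.10, SE, adjusted p = 0.000297). RFC2, a subunit of the clamp loader, was nearly level, with 91.3 and 90.6 FPKM at 0 h, 94.9 and 95.6 FPKM at 6 h, and 85.7 and 83.4 FPKM at 24 h (−0.10 ± 0.060, SE, adjusted p = 0.17 for 24 h against 0 h). In polymerase alpha, the catalytic subunit POLA1 had 13.4 and 14.9 FPKM at 0 h, 12 and 13.2 FPKM at 6 h, and 8.71 and 8.32 FPKM at 24 h (−0.67 ± 0.070, SE). Of the polymerase delta and epsilon subunits, POLD1, the catalytic subunit of polymerase delta, had the largest change, from 30.0 and 26.1 FPKM at 0 h and 29.6 and 26.9 FPKM at 6 h to 22.6 and 22.2 FPKM at 24 h (−0.31 ± 0.082, SE).

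In single-strand binding and Okazaki fragment processing the median changes were −0.32 and −0.27. RPA2 had 57.7 and 53.5 FPKM at 0 h, 51.6 and 52.6 FPKM at 6 h, and 43.3 and 41.6 FPKM at 24 h (−0.38 ± 0.054, SE). RPA3 had 33.6 and 36.5 FPKM at 0 h, 27.4 and 29.8 FPKM at 6 h, and 28.2 and 29.7 FPKM at 24 h (−0.27 ± 0.074, SE), so that its fall was already present at 6 h. LIG1, which seals Okazaki fragments, had 34.6 and 31.6 FPKM at 0 h, 32.6 and 29.9 FPKM at 6 h, and 21.6 and 23.7 FPKM at 24 h (−0.53 ± 0.076, SE). RNASEH2A, the catalytic subunit of ribonuclease H2, did not separate by time: it had 67.5 and 54.9 FPKM at 0 h, 57.4 and 55.3 FPKM at 6 h, and 61.8 and 50.2 FPKM at 24 h (−0.13 ± 0.12, SE, adjusted p = 0.42), and 53.3% of its exonic bases are also exonic in THSD8 on the same strand.

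The remaining members are given by their lowest and highest FPKM over the 11 libraries and their WT log2 change at 24 h with its standard error. Of the helicase subunits, MCM2 ran from 36.4 to 61.8 FPKM over the 11 libraries (−0.51 ± 0.071), MCM3 ran from 77.6 to 127.0 FPKM (−0.52 ± 0.067) and MCM6 ran from 42.6 to 62.3 FPKM (−0.49 ± 0.062). Of the licensing genes, ORC6 ran from 16.8 to 29.2 FPKM (−0.46 ± 0.079) and CDC6, which loads the helicase with CDT1, ran from 41.7 to 65.8 FPKM (−0.56 ± 0.050). All 5 fell in WT cells at 24 h. In the GINS complex, GINS1 ran from 7.59 to 13.3 FPKM (−0.58 ± 0.073), GINS2 ran from 33.1 to 54.1 FPKM (−0.52 ± 0.060) and GINS3 ran from 7.15 to 12.6 FPKM (−0.56 ± 0.077). In the clamp loader, RFC3 ran from 17.4 to 32.7 FPKM (−0.68 ± 0.088), RFC4 ran from 28.7 to 45.5 FPKM (−0.33 ± 0.11) and RFC5 ran from 26.8 to 42.0 FPKM (−0.55 ± 0.051). All 6 of these fell too, RFC4 with the widest error. PRIM2, the large subunit of primase, ran from 12.8 to 18.1 FPKM (−0.29 ± 0.096), and POLD3, an accessory subunit of polymerase delta, from 9.05 to 11.9 FPKM (−0.30 ± 0.086). RPA1, the largest subunit of the single-strand binding complex, ran from 40.0 to 59.7 FPKM (−0.33 ± 0.056), and FEN1, the flap endonuclease, from 133.1 to 173.7 FPKM (−0.27 ± 0.062). These 4 fell by amounts close to each other.

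At 6 h the members did not move as a block. Compared with WT 0 h, 14 members fell (21.1% of all features did), 3 rose (23.3% of all features did) and 22 did not pass, with a median of −0.11 against −0.00 over all features. The 14 were MCM2, MCM3, MCM4, MCM6, ORC1, GINS1, GINS3, PCNA, RFC4, POLA2, PRIM1, PRIM2, POLE2 and RPA3, and 3 of the 4 genes of polymerase alpha and primase were among them. This comparison depended on how the libraries were scaled. TPM moved the median of all features to −0.12 and that of the members to −0.23. With it 27 members fell (30.7% of all features did) and 2 rose (16.4% of all features did). Of all calls 34.8% were then higher in place of 52.5%. After quantile normalization 22 fell (26.0% of all features did) and 1 rose (20.6% of all features did). Without WT 6 h replicate 1, 8 fell and 1 rose. With the outlying ΔCRE 0 h library in the fit 1 fell and none rose, against 2.15% and 5.19% of all features.

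POLE (chr12:133200348-133263945, hg19), the catalytic subunit of polymerase epsilon, had the clearest rise at 6 h. It had 20.4 and 19.0 FPKM at 0 h, 26.6 and 26.0 FPKM at 6 h, and 20.5 and 19.8 FPKM at 24 h. Both 6 h libraries were above the other 4, which overlapped, and the rise of 0.40 ± 0.066 (SE, adjusted p = 0.0014) was called under TPM and quantile scaling too, although with the outlying library in the fit its adjusted p was 0.557, and the 24 h change was 0.03 ± 0.066 (SE, adjusted p = 0.70). MCM7, a helicase subunit, had 237.3 and 206.5 FPKM at 0 h, 266.5 and 262.1 FPKM at 6 h, and 182.9 and 177.8 FPKM at 24 h, with a log2 fold change of 0.25 ± 0.074 (SE, adjusted p = 0.023) at 6 h that was 0.07 (adjusted p = 0.23) after quantile normalization. CDC45, which binds the MCM helicase to activate it, had 50.5 and 44.9 FPKM at 0 h, 58.4 and 55.2 FPKM at 6 h, and 36.4 and 35.4 FPKM at 24 h, and its log2 fold change at 6 h of 0.25 ± 0.070 (SE, adjusted p = 0.019) was 0.13 (adjusted p = 0.079) with TPM and 0.15 (adjusted p = 0.056) with quantile normalization. Leaving out WT 0 h replicate 2 or WT 6 h replicate 1 ended both calls, with adjusted p-values of 0.128 and 0.103 for MCM7 and of 0.113 and 0.116 for CDC45, and leaving out WT 6 h replicate 2 gave 0.0733 for MCM7.

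PRIM1 and POLA2 had the opposite course. PRIM1, the catalytic subunit of primase, had 26.3 and 26.7 FPKM at 0 h, 16.2 and 17.4 FPKM at 6 h, and 21.0 and 20.7 FPKM at 24 h, with the 3 times separate and the lowest at 6 h. It fell by 0.63 ± 0.077 (SE, adjusted p = 0.00032) on the log2 scale at 6 h and was still lower at 24 h than at 0 h (−0.33 ± 0.077, SE). POLA2, the accessory B subunit of polymerase alpha, had 8.67 and 8.80 FPKM at 0 h, 6.65 and 6.70 FPKM at 6 h, and 8.35 and 8.39 FPKM at 24 h, a change of −0.34 ± 0.083 (SE) at 6 h and of −0.06 ± 0.083 (SE, adjusted p = 0.59) at 24 h. Some exonic bases of both are also exonic in other coding genes on the same strand (10.9% in PRIM1 and 16.8% in POLA2 for the longest overlap).

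**Figure D3:**
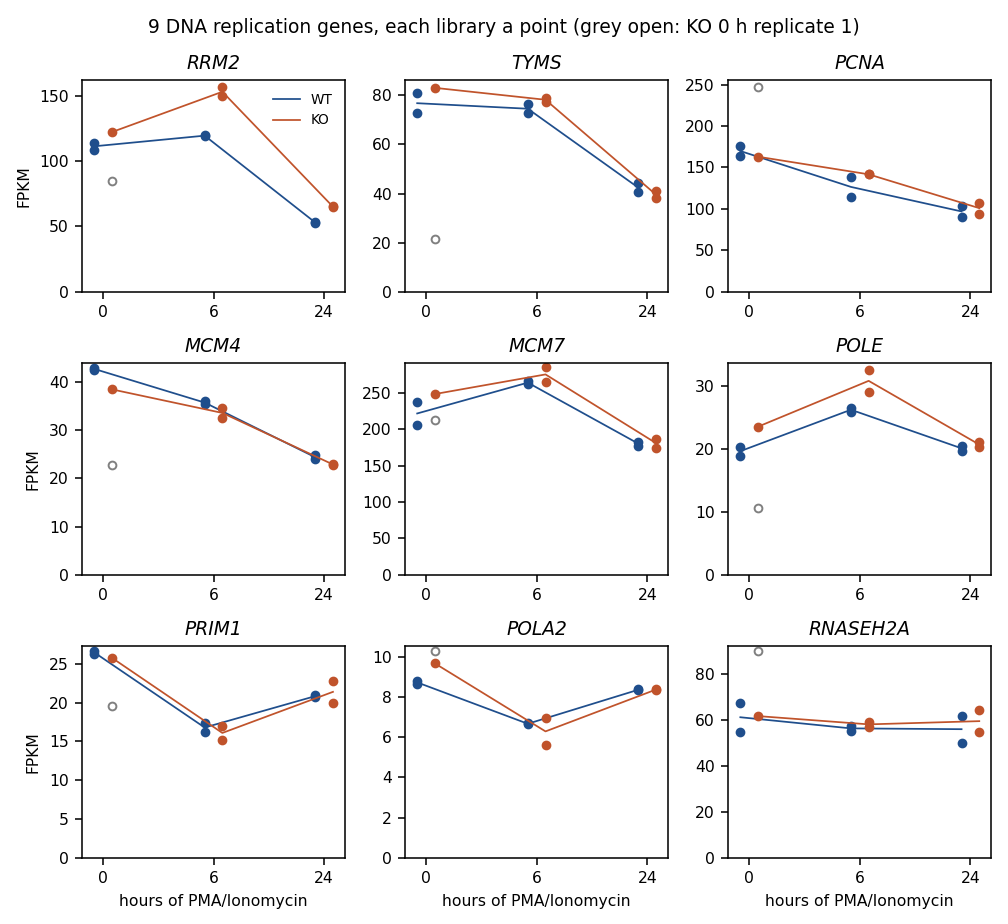
FPKM of 9 genes against hours of PMA/Ionomycin, each filled point 1 library, lines joining the group means of WT (blue) and KO, that is ΔCRE, cells (orange), and the grey open point the ΔCRE 0 h library that stood apart. RRM2 and TYMS are lowest at 24 h among the filled points of both genotypes, with RRM2 of ΔCRE cells higher at 6 h (149.5 and 156.7 FPKM) than at 0 h (122.2 FPKM), MCM7 and POLE are highest at 6 h, PRIM1 and POLA2 are lowest at 6 h, and the RNASEH2A points overlap at all times.

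Between 6 h and 24 h the fall was common to both genotypes. In WT cells 27 members fell and 2 rose from 6 h to 24 h, against 26.3% and 20.5% of all features, with a median of −0.31 (−0.04 over all features). In ΔCRE cells 29 fell and 2 rose, against 27.5% and 22.1% of all features, with a median of −0.39 (−0.03 over all features). The 27 that fell in WT cells all fell in ΔCRE cells as well, and the 2 that rose, PRIM1 and POLA2, were the same in both. GINS3 and GINS4 fell in ΔCRE cells and did not pass in WT cells (GINS3 −0.41 ± 0.077 and −0.19 ± 0.077, GINS4 −0.30 ± 0.075 and −0.15 ± 0.075, SE), and the difference between the genotypes was not called for either (adjusted p = 0.76 and 0.87). MCM5, MCM6, POLD3, POLE2, PRIM2, RFC4, RNASEH2A and RPA3 passed in neither. Across the 39 members the WT and ΔCRE changes, which share no library, had a Pearson's r of 0.954, and across all features one of 0.694. The features reached down to a mean of 1 FPKM, whereas the lowest mean of a member was 6.93 FPKM. No r over features at the members' levels was computed.

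Over the 3 times in WT cells, 17 members did not pass at 6 h and were lower at 24 h than at 6 h and at 0 h, CDC6, CDT1, LIG1, RRM1, RRM2 and TYMS among them, against 9.63% of all features. A further 6 (MCM2, MCM3, MCM4, ORC1, GINS1 and PCNA) fell at both steps, against 3.56% of all features, and 6 (MCM6, GINS3, RFC4, PRIM2, POLE2 and RPA3) fell at 6 h with no further called change, against 7.74%. These patterns depended on the scaling: with TPM the same counts were 8, 10 and 12 members, against 5.36%, 2.82% and 10.9% of features, and with quantile normalization 12, 8 and 11, against 8.7%, 4.16% and 9.75%. MCM4 and ORC1 fell at both steps under all 3 scalings. From 6 h to 24 h, TPM left 20 WT members and 26 ΔCRE members lower, against 15.2% and 17.6% of all features. Of all calls 65.4% were higher in WT cells in place of 43.7%, and 62.0% in ΔCRE cells in place of 44.6%. MCM2, MCM3, GINS1, PCNA, RFC2, RPA1 and FEN1 were the WT members no longer called with TPM. Quantile normalization left 21 WT and 23 ΔCRE members lower, against 23.4% and 24.9% of all features. The rise of PRIM1 and POLA2 in WT cells was called under both scalings, at 0.30 ± 0.077 and 0.29 ± 0.083 (SE), but it lost its call for both without WT 6 h replicate 1, without WT 24 h replicate 1 and without WT 24 h replicate 2 (0 rising members), and for POLA2 without WT 6 h replicate 2 (1 rising member). With the outlying library in the fit 3 WT and 8 ΔCRE members fell, against 2.7% and 3.96% of all features, and none rose.

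**Figure D4:**
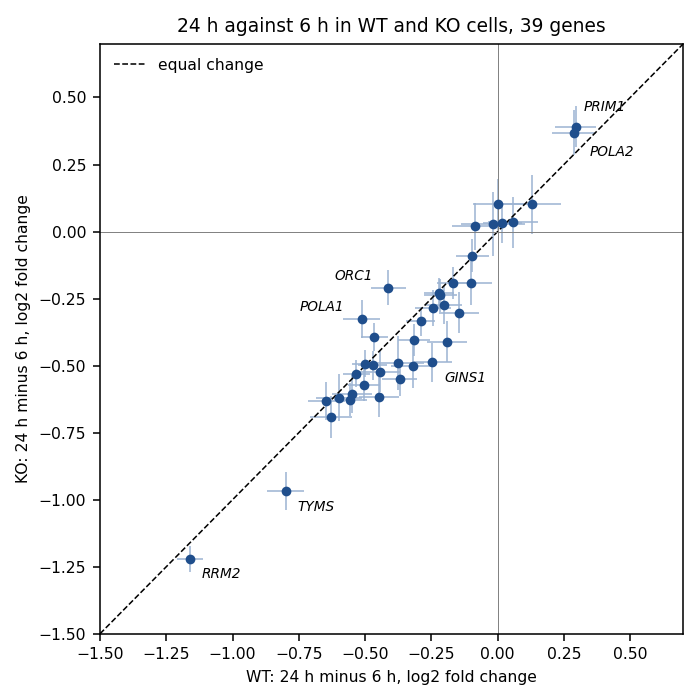
The log2 fold change from 6 h to 24 h in ΔCRE (KO) cells is plotted against that in WT cells for the 39 genes, with standard errors as bars and a dashed line of equal change. RRM2 lies lowest on both axes (−1.16 in WT and −1.22 in ΔCRE cells), PRIM1 and POLA2 lie above 0 on both, and the points follow the dashed line.

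For ΔCRE cells the comparison with 0 h rests on replicate 2 alone and has no test. Both 24 h libraries lay below it in 37 of the 39 members, against 45.6% of all features, and the median difference was −0.49 (−0.02 over all features). At 6 h the median difference from it was −0.11. RRM2 had 122.2 FPKM in this library, 149.5 and 156.7 FPKM at 6 h, and 64.8 and 65.4 FPKM at 24 h, and MCM4 had 38.5 FPKM, 34.6 and 32.6 FPKM, and 23.0 and 22.8 FPKM. The order of the times was that of WT cells for MCM4, and for RRM2 the 6 h libraries were the highest in both genotypes. Beside the WT 0 h libraries, ΔCRE 0 h replicate 2 was above both in 22 members, against 35.8% of all features, with a median difference of 0.06 (−0.15 to 0.34). It was below both in 5 and between them in 12, counts for which no share of all features was computed.

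Few members differed between ΔCRE and WT cells at the same time. At 6 h 2 of 39 members were higher in ΔCRE cells and none lower, where 3.62% of all features were higher and 6.22% lower, and at 24 h 1 was higher and none lower, where 2.35% were higher and 3.97% lower. Counts this small do not set the members apart from the other features. Both ΔCRE libraries were above both WT libraries in 21 members at 6 h, against 29.0% of all features, and in 13 members at 24 h, against 26.8%. At 24 h both were below both WT libraries in 4 members, a count for which no share of all features was computed. The median log2 difference over the members was 0.08 at 6 h and 0.04 at 24 h, and 0.01 over all features at both times. For 38 of the 39 members the 95% interval of the difference lay within 0.5 of 0 on the log2 scale at 6 h, and for 38 at 24 h, with the outermost bounds at −0.46 and 0.61. At 24 h TPM gave 24.7% of all calls as higher in ΔCRE cells in place of 37.2%.

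RRM2 was the member that differed at both times. In ΔCRE cells it had 149.5 and 156.7 FPKM at 6 h, above 119.2 and 119.8 FPKM in WT cells, and 64.8 and 65.4 FPKM at 24 h, above 52.9 and 53.1 FPKM. The libraries of the genotypes did not overlap at either time, and the ΔCRE level was 128.1% of that of WT at 6 h (log2 difference 0.35 ± 0.049, SE, adjusted p = 0.0038) and 122.8% at 24 h (0.29 ± 0.049, SE, adjusted p = 0.012). The 24 h call was lost with TPM (0.27, adjusted p = 0.053), in a fit of the 24 h libraries alone (adjusted p = 0.067), and without WT 24 h replicate 1 (adjusted p = 0.0983), WT 24 h replicate 2 (adjusted p = 0.0762), ΔCRE 24 h replicate 1 (adjusted p = 0.0613) or ΔCRE 24 h replicate 2 (adjusted p = 0.0863), leaving 0 members higher. With the outlying ΔCRE 0 h library in the fit, the adjusted p was 1.0 at both times.

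POLE2, the B subunit of polymerase epsilon, had 25.6 and 26.4 FPKM in ΔCRE cells at 6 h against 18.6 and 20.6 FPKM in WT cells, and 24.7 and 28.7 FPKM at 24 h against 19.7 and 21.2 FPKM. Its libraries did not overlap between genotypes at 6 h or 24 h, and the log2 difference was 0.39 ± 0.096 (SE, adjusted p = 0.038) at 6 h and 0.37 ± 0.096 (SE, adjusted p = 0.063) at 24 h. The 6 h call was lost with TPM (adjusted p = 0.097), with quantile normalization (adjusted p = 0.060), and when any of WT 6 h replicate 1 or 2, ΔCRE 6 h replicate 1 or 2 or WT 24 h replicate 1 or 2 was left out, with adjusted p-values between 0.0596 and 0.231 and 1 member higher. The next lowest adjusted p-values were those of RRM1 at 6 h, with 105.3 and 102.1 FPKM in ΔCRE cells against 87.4 and 94.0 FPKM (0.19 ± 0.054, SE, adjusted p = 0.063), and of RFC5, a clamp loader subunit, at 24 h, with 31.5 and 30.7 FPKM against 26.8 and 27.4 FPKM (0.19 ± 0.051, SE, adjusted p = 0.067).

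Whether the change from 6 h to 24 h differed between genotypes was tested as an interaction. No member passed in either direction (limma, 0.142% of all features higher and 0.0178% lower). The lowest adjusted p was 0.70, that of GINS1, and 1 of the 39 members had an unadjusted p under 0.05, as did 6.98% of all features. The differences ranged from −0.24 to 0.20 with standard errors of 0.069 to 0.18, and all 39 intervals at 95% lay within 0.5 of 0. Interactions with 0 h were not tested, since 1 ΔCRE library remained there.

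Genes around the replication machinery moved in the same direction at 24 h in WT cells. Of 42 other replication genes, 32 fell and 3 rose, against 28.2% and 26.5% of all features, with a median of −0.40. GMNN, the CDT1 inhibitor geminin, had 97.0 and 103.8 FPKM at 0 h and 63.6 and 62.8 FPKM at 24 h (−0.66 ± 0.051, SE). SUPT16H, a subunit of the histone chaperone FACT (−0.58), and UHRF1, which binds hemimethylated DNA (−0.73), fell as well. POLD4, a small subunit of polymerase delta, went the other way, from 17.8 and 16.4 FPKM at 0 h to 38.2 and 34.4 FPKM at 24 h (1.04 ± 0.096, SE), as did the helicase RECQL4, from 17.4 and 16.8 FPKM to 28.9 and 27.1 FPKM (0.68 ± 0.064, SE). The third that rose was CHTF18 (0.40), a subunit of an alternative clamp loader. With TPM 32 fell and 3 rose, against 25.9% and 26.2% of all features. After quantile normalization 32 fell and 4 rose, against 29.9% and 26.5%.

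Of 13 E2F, DP and pocket protein genes 8 fell and none rose at 24 h, against 28.2% and 26.5% of all features, with a median of −0.36. The same counts held with TPM and with quantile normalization, against 25.9% and 29.9% of all features lower. E2F8, an atypical E2F that represses transcription, had 14.9 and 14.2 FPKM at 0 h and 5.42 and 5.29 FPKM at 24 h (−1.29 ± 0.074, SE), and E2F1, an activator, had 41.3 and 37.9 FPKM at 0 h and 31.5 and 29.6 FPKM at 24 h (−0.36 ± 0.069, SE). TFDP1 (−0.50), E2F2 (−0.80), E2F3 (−0.50) and the pocket protein gene RBL1 (−0.80) also fell. Of 6 S-phase cyclins and kinases 5 fell, against 28.2% of all features. CCNE2 went from 14.7 and 16.0 FPKM to 4.58 and 5.38 FPKM (−1.45 ± 0.10, SE) and CCNA2 from 31.2 and 33.4 FPKM to 12.2 and 12.9 FPKM (−1.30 ± 0.071, SE). SKP2 (−1.13), CDC25A (−0.84) and CCNE1 (−0.69) fell as well, while CDK2 was at −0.14 (adjusted p = 0.091).

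All 20 mitosis genes fell at 24 h, against 28.2% of all features, with a median of −0.74. All 20 did so with TPM and with quantile normalization too, against 25.9% and 29.9% of all features. TOP2A, the topoisomerase that untangles sister chromatids, had 146.2 and 159.4 FPKM at 0 h and 49.2 and 54.0 FPKM at 24 h (−1.55 ± 0.083, SE). KIF20A (−1.03), BIRC5 (−0.99), CENPF (−0.99), NUSAP1 (−0.81) and AURKA (−0.71) fell with it. At 6 h, 16 of the 20 mitosis genes had fallen and 1 had risen, with a median of −0.39, against 21.1% and 23.3% of all features. Of the 39 replication genes 14 had fallen. With TPM 18 mitosis genes and 27 replication genes fell, against 30.7% of all features. After quantile normalization 18 and 22 fell, against 26.0%. The gap between these lists thus depended on the scaling, and the difference between them was not tested.

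The library labelled ΔCRE 0 h replicate 1 differed from the others in replication genes as in other features. Of the 39 members 13 were below every other library, where 36.1% of all features were, 10 were above every other library, where 35.0% were, and 16 were within their range. Shares this close to or under the background do not set the members apart. TYMS was at 21.3 FPKM, against 38.0 to 83.0 FPKM in the other libraries (log2 difference from WT 0 h −1.80), and RPA3 was at 93.6 FPKM, against 27.4 to 36.5 FPKM (1.39). PCNA was also high there, at 247.4 FPKM, and POLA1 low, at 6.14 FPKM. The same library held the epithelial and gut markers given above, whose part in these values was not tested.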

How the data were processed

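The samples were WT and ΔCRE cells of the MDA-MB-231 line, unstimulated or given PMA/Ionomycin for 6 or 24 h, with 2 biological replicates per group. The authors aligned stranded mRNA reads to hg19 with TopHat 2.0.12 and deposited FPKM values made with Cufflinks 2.2.1, in 1 column per library. The annotation, the strand setting of the counting and any scaling between libraries are not given in the sources used here. The names of 2 columns carry a digit where others carry a letter, and each was given the only label left under its group heading. The features of 3 members (MCM7, RPA3 and TYMS) span over 1.5 times the annotated gene, and 13 members share exonic bases with another coding gene, so their FPKM may hold reads of a neighbour.

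A pseudocount of 1 was added to the deposited FPKM before taking log2, and features averaging 1 FPKM or more in 11 libraries were kept. A single limma model (version 3.58.1, R 4.3.3, empirical Bayes with a mean-variance trend) held the 6 groups, without ΔCRE 0 h replicate 1, and p-values were adjusted by Benjamini-Hochberg over the 11256 features. The p-values rest on the spread between replicate libraries, pooled over the groups and moderated across features. The fold changes understate those of low genes. The code was tested on simulated data. Values in every library were given for the members with the largest and smallest 24 h change of each role, for the 3 lowest adjusted p-values between genotypes at 6 h and at 24 h, and at most 6 genes per further list were named by adjusted p. The values of 1 gene that this rule names are not reported here. MCM7, CDC45, PRIM1, TYMS, CHTF18, GINS1 and GINS3 were given values, and other members singled out, after their values were seen. The members and lists were chosen with earlier results of these data known. The settings varied were the pseudocount (0.1), the filter (none, or a mean of 5), the scaling (quantile, TPM), a model of the compared libraries only, a replicate block, the trend, the use of all 12 libraries, and leaving out each library. Python 3.11.15 and pandas 2.3.3 were used for the rest.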

Additional observations from a re-analysis of the deposited data

Results flagged for a closer look

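Replicate 1 of the libraries labelled ΔCRE 0 h entered no test, and in it 10 of the 39 replication genes were above each of the other 11 libraries, RPA3 (93.6 FPKM), PCNA (247.4 FPKM) and TK1 (221.1 FPKM) among them, and 13 were below each of them. Of all tested features 35.0% were above and 36.1% below each of the other 11 libraries, so these counts are not particular to the replication genes. The count drew attention because it comes from data outside the comparisons. All 10 epithelial and gut markers were at 1 FPKM or more in the same library, and their part in these values was not tested.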

How the results depend on the processing

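Counts of members are given here. For the comparisons of times, the shares of all features called lower under TPM, quantile normalization and all 12 libraries stand above. With all 12 libraries the count at WT 6 h against 0 h went from 3 higher and 14 lower to 0 and 1, at WT 24 h against 0 h from 35 lower to 9, at WT 24 h against 6 h from 2 higher and 27 lower to 0 and 3, at ΔCRE 24 h against 6 h from 2 and 29 to 0 and 8, and between genotypes from 2 higher at 6 h and 1 at 24 h to 0 and 0. Quantile normalization gave 1 higher and 22 lower at WT 6 h, and 1 (6 h) and 2 (24 h) higher between genotypes. TPM gave 27 lower at WT 6 h, and between genotypes 1 higher at 6 h, and at 24 h 0 higher with POLD1 as the 1 lower. A fit of the compared libraries alone gave 1 higher at WT 6 h, 1 higher at ΔCRE 24 h against 6 h, and 1 and 0 higher between genotypes at 6 h and 24 h. Without a filter 1 (6 h) and 2 (24 h) were higher between genotypes. The cause of these moves was not tested. By construction, the twelfth library adds to the spread shared by all groups, and a separate fit holds fewer libraries. No call reversed: of 115 calls of members 94 were lost with all 12 libraries, 16 with TPM, 16 with quantile normalization, 13 in separate fits, 8 without a filter, 4 without the trend, and 0 with a pseudocount of 0.1 or a mean of at least 5.

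Leaving out 1 library at a time gave, at WT 6 h against 0 h, 1 to 3 higher and 8 to 14 lower; at WT 24 h against 0 h, 0 higher and 29 to 35 lower; at WT 24 h against 6 h, 0 to 2 higher and 20 to 27 lower; at ΔCRE 24 h against 6 h, 2 higher and 23 to 30 lower; between genotypes, 1 to 2 higher at 6 h and 0 to 1 at 24 h, with 0 lower, and 0 in the interaction. With the replicate number as a replicate block ΔCRE cells had 6 higher members at 6 h, and at 24 h they had 6 higher and 1 lower, and no call of the fit without it was lost. With the block, 7.07% of all features were higher and 8.96% lower in ΔCRE cells at 6 h, in place of 3.62% and 6.22%. At 24 h 5.54% were higher and 6.96% lower, in place of 2.35% and 3.97%. The deviations of same-numbered replicates from their group means correlated at −0.0676 to 0.202 over 10 pairs of groups. A low correlation over all features does not exclude a shared batch for some of them, and whether same-numbered samples shared one was not tested. FPKM keep no fragment counts, so no counting interval was computed, and with 2 libraries a group small differences can be missed.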
